A study of Mus musculus with 90 samples.

Results

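The 31 genes described here encode constitutive subunits of the proteasome. They were chosen by gene symbol: Psma1 to Psma7 for the alpha ring of the core particle, Psmb1 to Psmb7 for its beta ring, Psmc1 to Psmc6 for the ATPases of the regulatory particle, and Psmd1, Psmd2, Psmd3, Psmd4, Psmd6, Psmd7, Psmd8, Psmd11, Psmd12, Psmd13 and Psmd14 for its other subunits. All 31 were found among the 27654 genes of the deposited tables, and all 31 passed the filter on low counts in every comparison given here.

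The proteasome is the protease that degrades proteins tagged with ubiquitin. Substrates bind the regulatory particle, whose lid carries the deubiquitinase Psmd14, are unfolded by the ring of ATPases, and are threaded through the alpha ring into the beta ring, where Psmb5, Psmb6 and Psmb7 cut them. In hepatocytes it works beside autophagy in protein turnover, and the transcription factor Nfe2l1, activated by the protease Ddi2 and the deglycosylase Ngly1, is known for raising subunit genes when capacity falls short.

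The series asks how caloric restriction and the glucocorticoid receptor shape gene expression in the mouse liver over the day, with 90 RNA-seq libraries from whole livers of male C57BL/6J mice on chow. In the diet experiment, WT mice were sampled at ZT12 (zeitgeber time, hours after lights on) under Caloric Restriction (CR, 3 mice) or Night Restricted Feeding (NR, 3 mice, titled AL). In the time series, GRfl/fl mice (WT) and GRfl/fl x Alb-Cre mice (GRLKO) were sampled every 4 h at 6 time points, with 3 mice per point on CR (36 libraries) and 3 or 4 on NR (42 libraries, called control diet here). In the corticosterone experiment, WT mice under night feeding were sampled at ZT12 after corticosterone (3 mice) or as its controls (3 mice, titled NR). The paper describes vehicle injections for the controls of this experiment, so they are called vehicle livers here. Their titles name the feeding and not a vehicle, so that they were injected is not shown by the titles. Restriction began at 12 weeks of age, reached a 40% reduction stepwise within a regimen of 8 weeks, and placed food at ZT12, while controls were fed at night for the last 7 days. Corticosterone was injected at 5 mg per kg on 7 days, at ZT11 by the paper's methods and at ZT12 by its results. Mice of 12 weeks were first handled for 2 weeks. The Alb promoter drives Cre in hepatocytes, so other liver cells keep the receptor. Because these are bulk libraries, fewer cells of a type and less RNA per cell cannot be told apart.

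Nr3c1 (ENSMUSG00000024431), the gene of the glucocorticoid receptor that Cre deletes, was read first as a check of the labels, in CPM (counts scaled to a common library total after TMM, as in edgeR's CPM, the unit of every level below). On CR its lowest, median and highest levels were 70.5, 94.0 and 113 in 18 WT livers and 21.6, 25.0 and 32.2 in 18 GRLKO livers. On the control diet they were 72.8, 86.9 and 117 in 22 WT livers and 16.2, 21.7 and 28.8 in 20 GRLKO livers. WT and GRLKO livers did not overlap on either diet, so each library matched its genotype label. Hepatocyte markers were abundant everywhere, with Alb the highest of the 6 that were measured. Total counts per library ran from 36442195 to 39492146 in the diet experiment and from 13739631 to 16077943 in the corticosterone experiment. In the time series they ran from 14235473 to 20788575 on CR and from 10057544 to 17089004 on the control diet. The 31 genes together took between 0.172% and 0.282% of those counts.

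Apart from Psmc2, the other 30 members lay between 18.4 and 190.2 CPM in all 90 libraries, and livers of the same group differed little, with a median coefficient of variation within groups of 3.14% to 7.25% depending on the gene. Psmc2 (ENSMUSG00000028932), an ATPase of the base, was the exception, with 2.59 CPM in its lowest library, a median of 60.9 and 95.4 in its highest, and a coefficient of variation of 38.3%. Its fold changes have wide errors in some comparisons. A processed pseudogene, Gm13835, is identical to Psma3 over 665 bases and was itself counted at a median of 20.8 and up to 32.8 CPM, so the split of reads between both genes is uncertain. Of 15 near-identical copies of 9 members, 11 were among the counted genes. Gm13835 was 1 of 2 that exceeded 1 CPM, the other being Gm14048 of Psmd11, in 1 library at 1.11 CPM. Whether the counting used the strand is not stated, and exons of 5 members overlap counted genes on the opposite strand. Nek6, up to 80.9 CPM, overlaps Psmb7 over 405 bases, Sirt3, up to 135 CPM, overlaps Psmd13 over 342 bases, and Slc39a13, up to 14.7 CPM, overlaps Psmc3 over 215 bases, so the split of reads between the partners is uncertain in these stretches. The 31 genes lie on 14 chromosomes, with 6 of them on chromosome 11, so they are not neighbours in 1 cluster.

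Many members, but not all, moved together across the libraries of the time series. The Pearson r of a member's log2 CPM with the mean of the other members had a median of 0.543 over the 36 CR libraries, against 0.00756 for all 8872 genes compared, and 0.519 over the 42 control libraries, against 0.0579. On CR it was highest for the ATPase Psmc4 (0.863) and lowest for the alpha subunit Psma6 (0.0442). On the control diet it was highest for the catalytic subunit Psmb7 (0.738) and lowest for the lid subunit Psmd8 (0.00568). The r was over 0.5 in 17 members on CR and 16 on the control diet, against 197 of 8872 and 374 of 8848 genes. These values are descriptions across libraries that also share time points, genotypes and scaling.

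The diet comparison asks what CR does to the liver at ZT12, just before the daily meal. The summed level of the 31 genes was 2132, 2146 and 2123 CPM in the control livers and 1809, 1932 and 1828 CPM in the CR livers, a mean of 2134 ± 11.9 against 1857 ± 66.3 (SD, n = 3 each). The groups did not overlap. In the quasi-likelihood test of edgeR, adjusted by Benjamini-Hochberg over 13062 genes, 16 of the 31 were lower under CR and 1 was higher, where 23.6% of all genes tested were lower and 23.5% higher. In 22 of the 31 every CR liver lay below every control liver, which held for 30% of all genes tested. The median log2 fold change of the 31 was -0.20, against -1.8e-06 for all genes tested. Of the 31 values 26 were negative, against 50% over all genes tested. Because members correlate across libraries, such counts of signs, here and below, are not counts of independent observations.

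In the alpha ring, which gates entry to the core, 4 of 7 genes fell and the median log2 fold change was -0.30. Psma5 (ENSMUSG00000068749, chr3:108256926-108279974 on GRCm38, plus strand) stood at 48.3, 49.4 and 46.9 CPM in the control livers and at 36.2, 35.3 and 34.4 CPM in the CR livers. All CR livers were below all control livers, and the log2 fold change was -0.45 (standard error 0.06, Benjamini-Hochberg adjusted p = 0.00132, edgeR). The other alpha genes that fell were Psma1 (-0.31), Psma2 (-0.36) and Psma4 (-0.30). Psma3, Psma6 and Psma7 had log2 fold changes of -0.11, -0.07 and -0.17 and did not pass.

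Of the structural beta subunits Psmb1 to Psmb4, which complete the ring beside the catalytic ones, Psmb2 fell (-0.23) and the others lay between -0.16 and -0.13 without passing. Of the catalytic subunits 1 of 3 was called. Psmb5 (ENSMUSG00000022193, chr14:54614119-54618022, minus strand), which carries the chymotrypsin-like activity, was at 65.7, 64.3 and 61.8 CPM in the control livers and at 55.0, 62.2 and 57.4 CPM in the CR livers. The groups overlapped, and its log2 fold change of -0.14 did not pass (standard error 0.07, Benjamini-Hochberg adjusted p = 0.151, edgeR). Psmb6 (ENSMUSG00000018286, chr11:70525367-70527858, plus strand), the caspase-like subunit, was at 76.1, 73.6 and 78.1 CPM in the control livers and at 75.0, 79.8 and 74.9 CPM in the CR livers. Its groups overlapped fully, and the log2 fold change of 0.01 turned to -0.02 without CR replicate 2 and to -0.01 without control replicate 2. Psmb7 (ENSMUSG00000026750, chr2:38588036-38644087, minus strand), the trypsin-like subunit, was at 107, 108 and 111 CPM in the control livers and at 89.3, 99.3 and 93.9 CPM in the CR livers. The groups did not overlap, and the log2 fold change was -0.21 (standard error 0.07, Benjamini-Hochberg adjusted p = 0.0351, edgeR). That call did not hold without any 1 of the 6 livers, where its Benjamini-Hochberg adjusted p from edgeR ran from 0.0525 to 0.0955, and in the WT livers of the time series at ZT12 the log2 fold change was 0.10.

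Among the ATPases, 4 of 6 fell: Psmc1 (-0.21), Psmc3 (-0.39), Psmc4 (-0.39) and Psmc6 (-0.33), while Psmc2 and Psmc5 had log2 fold changes of 0.05 and 0.06 that did not pass. Of the base scaffold and ubiquitin receptor subunits, Psmd1 (-0.34) and Psmd2 fell and Psmd4 (-0.12) did not pass. Psmd2 (ENSMUSG00000006998, chr16:20651652-20663414, plus strand), a large scaffold protein of the base, was at 160.0, 159.5 and 155 CPM in the control livers and at 106, 106 and 99.5 CPM in the CR livers. Every CR liver was lower, by a log2 fold change of -0.61 (standard error 0.06, Benjamini-Hochberg adjusted p = 0.000514, edgeR).

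The lid held both the largest decrease and the 1 increase. Psmd14 (ENSMUSG00000026914, chr2:61711694-61800376, plus strand), the metalloprotease that removes ubiquitin chains from substrates, was at 30.5, 31.8 and 29.7 CPM in the control livers and at 18.4, 20.7 and 18.9 CPM in the CR livers. The groups were far apart, with a log2 fold change of -0.67 (standard error 0.07, Benjamini-Hochberg adjusted p = 0.000684, edgeR). Psmd3 (-0.34), Psmd8 (-0.19) and Psmd13 (-0.25) also fell. Psmd11 (ENSMUSG00000017428, chr11:80428615-80473248, plus strand), a lid subunit with a role in proteasome assembly, was at 61.4, 62.1 and 66.1 CPM in the control livers and at 68.3, 78.9 and 79.0 CPM in the CR livers. All CR livers were above all control livers, and the log2 fold change was 0.25 (standard error 0.08, Benjamini-Hochberg adjusted p = 0.0351, edgeR). The call on Psmd11 held without CR replicate 1, where 2 members were higher, and was lost without CR replicate 2, without CR replicate 3 and without control replicate 1, 2 or 3, where 0 members were higher and its Benjamini-Hochberg adjusted p from edgeR reached 0.117. Psmd6, Psmd7 and Psmd12 had log2 fold changes of -0.08, 0.19 and -0.09 and did not pass.

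Calls on Psma5, Psmd2 and Psmd14 held with each liver left out, and DESeq2 called 16 members lower and 1 higher. The share of all genes called by DESeq2 is not given here or below. Its counts of members are therefore not shown to be particular to the members. Scaling by total counts alone moved the median of all genes tested to -0.12 and called 25 members lower and 0 higher (31.2% and 17% of all genes), and relative to that shift the median of the members was again -0.20. In the WT livers of the time series at ZT12, diet coincides with library batch and the effects of both cannot be told apart. There 10 members were called, 9 of them lower under CR, while 19.4% of all genes tested were lower and 18.7% higher. The median of the members was -0.11. The log2 fold change of Psmb6 was -0.30 there and -0.11 under scaling by total counts.

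**Figure D1:**
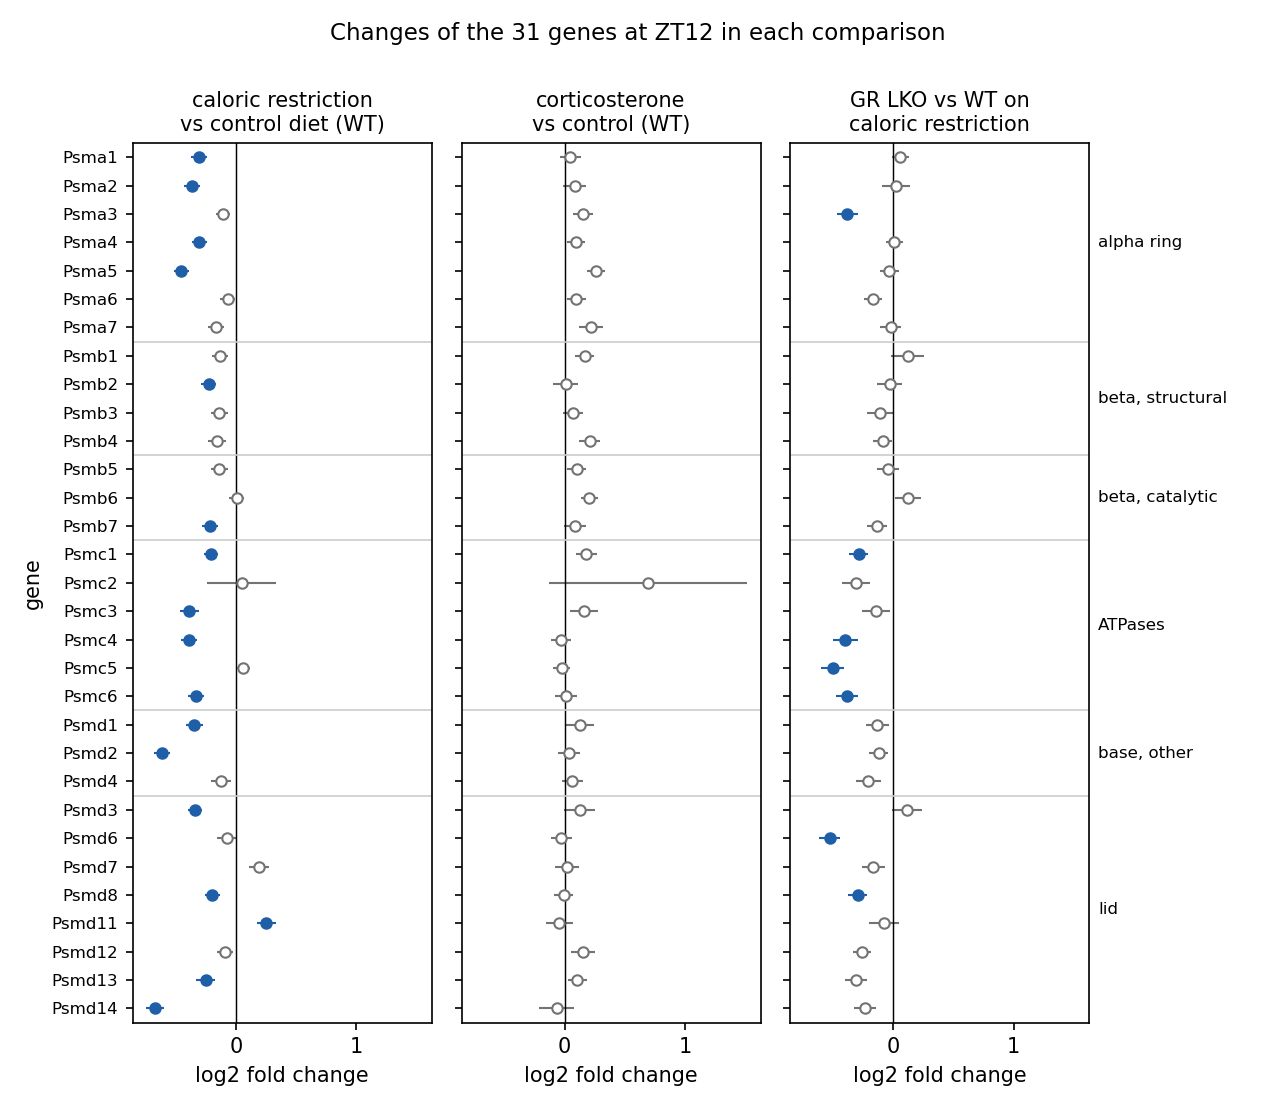
Log2 fold change (x axis) of each of the 31 genes (y axis, ordered by role) in 3 comparisons at ZT12, with points for the estimate and bars for the standard error; filled blue points passed edgeR's test and open grey points did not. The diet panel has 16 genes called lower and 1 higher, the corticosterone panel 0, and the panel of GRLKO against WT on CR has 7 lower.

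Genes around the proteasome did not move as 1 block with diet. The immunoproteasome subunits, which replace the catalytic subunits in immune signalling, all fell (3 of 3): mean levels went from 14.5 to 6.67 CPM for Psmb8 (log2 fold change -1.12), from 22.9 to 3.23 CPM for Psmb9 (-2.83) and from 28.5 to 17.5 CPM for Psmb10 (-0.71). Assembly chaperones were mixed, with 3 of 8 lower, Pomp (-0.59), Psmd10 (-0.54) and Psmg2 (-0.72), and Psmd9 higher (0.74). The call on Psmg2 was lost without control replicate 1, without control replicate 2 and without CR replicate 2. The log2 fold change of Psmd10 turned positive in the WT livers of the time series at ZT12. Of the activators and the inhibitor, 3 of 5 fell, led by Psmf1 (-0.64), a proteasome inhibitor. The 2 other constitutive subunits, Adrm1 and Sem1, gave 0 calls in edgeR, 0 at an unadjusted p under 0.05 and 0 in DESeq2. Of the subunits of testis and thymus, 1 of 2 was higher under CR, Psmb11, at a mean of 0.20 CPM in the control livers and 0.41 CPM in the CR livers, and that call did not hold without any 1 of the 6 livers.

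In the list for transcriptional control of proteasome genes 5 of 9 rose and 1 fell, with a median log2 fold change of 0.41. Maff, a small Maf protein that pairs with such activators, stood at 4.34, 2.46 and 3.49 CPM in the control livers and at 16.6, 17.1 and 28.4 CPM in the CR livers. Ddi2 stood at 209, 222 and 245 CPM in the control livers and at 399, 432 and 491 CPM in the CR livers. For both, every CR liver was above every control liver, with log2 fold changes of 2.59 and 0.97. Nfe2l1 rose by 0.47 and Bach1, a repressor at the same elements, fell by 0.58. Proteasome-bound and shuttle proteins were split (4 of 13 higher, led by Ubqln4 at 1.10, and 3 lower, among them the deubiquitinase Usp14 at -0.44). Of the unfoldase Vcp and its cofactors, 1 of 8 was higher and 2 were lower, among them Vcp itself (-0.44). Ubiquitin genes and activating enzymes were higher in 4 of 6, and heat shock chaperones in 8 of 10 (median 0.77, Hspa8 at 0.67). In the WT livers of the time series at ZT12 the log2 fold changes of the chaperones Hspa1a, Hspa1b, Hspb1 and Hsph1 turned to -0.71, -0.91, -0.44 and -0.13.

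Cell type markers also differed between the diets. Hepatocyte markers were higher in 3 of 6, with a summed level of 79230.0, 80435 and 85072 CPM in the control livers and 148504, 150891 and 154210.3 CPM in the CR livers, most of it Alb. Endothelial markers were higher in 4 of 6, with sums of 116, 149 and 153 CPM in the control livers and 194, 194 and 222 CPM in the CR livers and Kdr the most abundant. Stellate cell markers were higher in 2 of 6 and lower in 1 (199, 212 and 168 against 283, 249 and 286 CPM, mostly Dcn), cholangiocyte markers higher in 2 of 4 (48.8, 46.6 and 47.6 against 58.5, 38.3 and 38.6 CPM, mostly Spp1, with Epcam at 0), and erythrocyte markers lower in 1 of 5 (463, 1089 and 644 against 349, 207 and 589 CPM, mostly Hbb-bs). Kupffer cell markers gave 0 calls of 8 in edgeR and in DESeq2 with 1 at an unadjusted p under 0.05, at 118, 101 and 125 CPM in the control livers and 80.5, 127 and 119 CPM in the CR livers, mostly Clec4f. Lymphocyte markers were lower in 1 of 4 with sums of 2.50, 3.47 and 2.11 against 0.939, 1.20 and 1.04 CPM, mostly Cd79a, and 0 neutrophil markers were abundant enough to test. The part of these markers in the result on the 31 genes was not tested.

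The corticosterone comparison asks what the hormone does without the diet. No member passed. The summed level of the 31 genes was 2250.0, 2106 and 2076 CPM in the vehicle livers and 2315, 2362 and 2231 CPM in the corticosterone livers, a mean of 2144 ± 93.1 against 2303 ± 66.6 (SD, n = 3 each), and the groups overlapped. By edgeR's quasi-likelihood test 0 of 31 were called, where 8.11% of the 11523 genes tested were, 3 had an unadjusted p under 0.05 (26% of all did), and DESeq2 called 0. The values leaned upward, with 25 of 31 positive and a median log2 fold change of 0.09, against -0.01 for all genes tested. Of all 11523 genes tested, 5652 had positive values. In 9 members every corticosterone liver lay above every vehicle liver, which held for 16.7% of all genes tested.

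Psma5 came nearest to a call. It stood at 35.95, 36.05 and 34.25 CPM in the vehicle livers and at 41.9, 43.2 and 42.4 CPM in the corticosterone livers. The groups did not overlap, and the log2 fold change was 0.26 (standard error 0.08, Benjamini-Hochberg adjusted p = 0.0857, edgeR). Psmb6 was at 83.3, 78.1 and 79.6 CPM against 93.6, 92.1 and 92.7 CPM in the corticosterone livers. Its groups were separate too, with a log2 fold change of 0.21 (standard error 0.07, Benjamini-Hochberg adjusted p = 0.134, edgeR). Psmb5 was at 73.1, 66.7 and 69.6 CPM against 76.5, 75.7 and 72.7 CPM. Psmb7 was at 101, 96.5 and 89.1 CPM against 108, 98.7 and 98.5 CPM. Both overlapped between the groups, with log2 fold changes of 0.10 and 0.09 that did not pass. The median by role was 0.10 for the alpha ring, 0.12 for the structural beta subunits, 0.10 for the catalytic ones, 0.09 for the ATPases, 0.06 for the rest of the base and 0.00 for the lid. Under scaling by total counts the median of all genes tested moved to -0.10 and that of the members to 0.00, a difference of 0.10, and Psmb7 turned to -0.01.

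Calls among the related lists were few. Maff rose from 0.575, 1.49 and 0.889 CPM in the vehicle livers to 17.97, 25.77 and 16.01 CPM in the corticosterone livers. All treated livers were higher, by a log2 fold change of 4.31 (standard error 0.34, Benjamini-Hochberg adjusted p = 0.00141, edgeR). With Mafk (0.81), whose call held in 2 of the 6 fits that left out a liver, it made 2 of 8 regulators higher. Heat shock chaperones were lower in 2 of 10, Hsp90aa1 (-1.33) and Hsp90ab1 (-0.62), the second in only 1 of the 6 fits that left out a liver, and Ubxn4, a Vcp cofactor, was lower in 1 of 8 (-0.56), a call lost without vehicle replicate 2 and without corticosterone replicate 3. The lists of other constitutive, immunoproteasome, assembly, activator, bound and ubiquitin genes gave 0 calls in edgeR, with 0, 1, 1, 0, 2 and 0 at an unadjusted p under 0.05 and 0 in each by DESeq2, and the subunits of testis and thymus were too low to test.

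Marker levels also differed here. Hepatocyte markers were higher in 1 of 6, at 95215, 89467 and 93384 CPM against 92473, 92889.8 and 84574 CPM, mostly Alb. Kupffer cell markers were higher in 1 of 8 (67.0, 84.1 and 94.5 against 87.1, 135 and 113 CPM, mostly Clec4f), endothelial markers lower in 1 of 6 (95.2, 102 and 120 against 77.1, 85.2 and 92.5 CPM, mostly Clec4g), and stellate and cholangiocyte markers lower in 1 of 6 and 1 of 4. Erythrocyte markers gave 0 calls of 5 in edgeR, with 5 at an unadjusted p under 0.05 and 4 lower in DESeq2, at 699.7, 632 and 785 CPM against 327, 558 and 301 CPM, mostly Hbb-bs. The 1 neutrophil marker tested was not called by edgeR (log2 fold change 1.82), and the neutrophil sums were 0.07, 0.68 and 0.62 against 2.50, 2.37 and 1.57 CPM. Lymphocyte markers were too low to test, at 0.93, 2.61 and 2.60 against 0.38, 0.79 and 0.68 CPM. The part of these markers in the result was not tested.

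The comparison of GRLKO with WT livers on CR at ZT12 asks how much of the liver's state before the meal needs the receptor in hepatocytes. The sum of the 31 genes was 2479, 2271 and 2333 CPM in WT livers and 2058, 2176 and 2209.7 CPM in GRLKO livers, a mean of 2361 ± 107 against 2148 ± 79.6 (SD, n = 3 each), and the groups did not overlap. By edgeR's quasi-likelihood test 7 of 31 were lower in GRLKO and 0 were higher, where 7.84% and 7.42% of 11759 genes tested were, 11 had an unadjusted p under 0.05 (31% of all did), and DESeq2 called 8 lower and 0 higher. In 15 members every GRLKO liver lay below every WT liver, which held for 18.8% of all genes tested. The median log2 fold change was -0.14, against -0.00 for all genes tested, and under scaling by total counts, which moved the median of all genes to 0.16, that of the members turned to 0.02, again -0.14 relative to all genes.

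Of the 7, 4 were ATPases (median of the 6 ATPases -0.35): Psmc1 (-0.29), Psmc4, Psmc5 and Psmc6 (-0.38). Psmc5 (ENSMUSG00000020708, chr11:106256154-106263120, plus strand) was at 71.2, 60.9 and 64.7 CPM in WT livers and at 45.1, 44.3 and 50.1 CPM in GRLKO livers. All GRLKO livers were lower, by a log2 fold change of -0.50 (standard error 0.09, Benjamini-Hochberg adjusted p = 0.014, edgeR). Psmc4 (ENSMUSG00000030603, chr7:28041707-28050101, minus strand) was at 70.5, 59.3 and 61.5 CPM in WT livers and at 45.7, 47.2 and 53.2 CPM in GRLKO livers. These groups did not overlap either, with a log2 fold change of -0.40 (standard error 0.10, Benjamini-Hochberg adjusted p = 0.0413, edgeR).

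Lid genes held 2 more calls, Psmd6 and Psmd8 (-0.30), and the alpha ring 1, Psma3 (-0.38), the gene with the counted pseudogene. Psmd6 (ENSMUSG00000021737, chr14:14112174-14120984, minus strand), a scaffold subunit of the lid, was at 61.4, 55.9 and 56.2 CPM in WT livers and at 41.7, 37.6 and 41.6 CPM in GRLKO livers. The gap between the groups was wide, and the log2 fold change of -0.53 was the largest among the 31 (standard error 0.09, Benjamini-Hochberg adjusted p = 0.00824, edgeR). No structural beta subunit, catalytic subunit or non-ATPase base subunit was called by edgeR, and the medians of these roles were -0.06, -0.05 and -0.13.

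Among the catalytic subunits, Psmb5 was at 64.9, 55.3 and 57.8 CPM in WT livers and at 54.5, 60.1 and 58.9 CPM in GRLKO livers. Psmb6 was at 99.7, 82.0 and 84.5 CPM in WT livers and at 89.0, 102 and 101 CPM in GRLKO livers. Psmb7 was at 141, 125 and 128 CPM in WT livers and at 123, 116 and 120.2 CPM in GRLKO livers. WT and GRLKO overlapped for Psmb5 and Psmb6 and did not for Psmb7, and their log2 fold changes of -0.05, 0.12 and -0.14 did not pass, with that of Psmb5 turning to 0.03 without WT replicate 1 and those of Psmb5 and Psmb7 to 0.11 and 0.02 under scaling by total counts.

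The calls on Psmd6 and Psmc5 held with each of the 6 livers left out, that on Psmc4 with none (Benjamini-Hochberg adjusted p from 0.0584 to 0.112, edgeR), and the number of members lower was 3 without WT replicate 1 and 2 without WT replicate 2 or 3 or without GRLKO replicate 1, 2 or 3. It was 1 under scaling by total counts (4.11% of all genes tested) and 4 with no filter on low counts (4.38%). The share of all genes lower with a liver left out is not given, so the fall in those fits is not shown to be particular to the members.

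Among related genes, Maff went from a mean of 14.1 ± 1.60 CPM in WT livers to 5.25 ± 0.69 CPM in GRLKO livers (SD, n = 3 each), at a log2 fold change of -1.44 with a Benjamini-Hochberg adjusted p = 0.00171 by edgeR. It was 1 of 2 regulators lower of 8, with Ddi2 (-0.45), and Nfe2l2 was higher (0.40), the calls on the latter pair each holding in 1 of the 6 fits that left out a liver. Activators were split, with Psme1 higher (0.54) and Psme3 lower (-0.49) among 5. Psmb10 of the 3 immunoproteasome subunits was higher (0.69, held in 2 of the 6 fits that left out a liver). Assembly chaperones had Psmd5 higher (0.38), lost without WT replicate 2 and without GRLKO replicates 1 or 3, and Psmd9 lower (-0.58), lost without GRLKO replicates 1 or 2, among 8. Usp14 was the 1 of 13 bound proteins that was lower (-0.37, held in 2 of the 6 fits that left out a liver). The lists of other constitutive subunits, Vcp and its cofactors, ubiquitin genes and heat shock chaperones gave 0 calls in edgeR, with 0, 3, 1 and 2 at an unadjusted p under 0.05 and 0, 1, 1 and 2 called by DESeq2.

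Marker genes moved with the genotype on CR at ZT12. Hepatocyte markers were lower in 4 of 6, with sums of 156281, 155599.6 and 162052 CPM in WT livers and 118739, 125471 and 109753 CPM in GRLKO livers, mostly Alb. Kupffer cell markers were higher in 3 of 8, with sums of 43.1, 71.0 and 52.1 CPM in WT livers and 118, 92.9 and 154 CPM in GRLKO livers, mostly Clec4f. Endothelial markers were higher in 1 of 6 (163, 149 and 180.0 against 213, 199 and 222 CPM, mostly Clec4g), erythrocyte markers in 1 of 5 (586, 456 and 356 against 812, 584 and 448 CPM, mostly Hbb-bs), and cholangiocyte markers lower in 1 of 3 (26.4, 31.2 and 29.1 against 31.5, 32.5 and 32.0 CPM, mostly Spp1, with Epcam at 0), while 0 of 6 stellate markers were called by edgeR, 0 had an unadjusted p under 0.05 and DESeq2 called 0. Their part in the result on the 31 genes was not tested.

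At the other 5 time points on CR no member passed edgeR's test, and DESeq2 called 0 members at all of them but ZT4, where it called 1. At ZT0, where 0.502% of all genes tested were called, 0 members were, 4 had an unadjusted p under 0.05 (13.2% of all genes tested did), and the median log2 fold change was -0.08. There 27 of 31 values were negative (50.4% over all genes tested). Every GRLKO liver lay below every WT liver in 10 members and above in 1 (1275 and 1184 of 12140 genes tested). At ZT4, with 0.69% of all genes called, 0 members were, and 9 had an unadjusted p under 0.05 (14.6% of all did). Of the 31 values there, 29 were negative (50.8% over all genes tested), with a median of -0.16. In 14 members every GRLKO liver lay below every WT liver at ZT4, which held for 10.5% of all genes tested. At ZT8, with 2.55% of all genes called, 0 members were, and 5 had an unadjusted p under 0.05 (17.3% of all genes tested did). There 27 of 31 values were negative (49.9% over all genes tested), with a median of -0.10. Every GRLKO liver lay below every WT liver in 10 members and above in 0 (1554 and 1426 of 12070 genes tested). At ZT16, with 4.54% of all genes called, 0 members were, 1 had an unadjusted p under 0.05 (19.2% of all did) and the median was 0.04, and at ZT20, with 1.47%, the same counts (19.4% of all at an unadjusted p under 0.05) came with a median of -0.03.

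Psmd6 is given here in each liver. At ZT0 it was at 49.5, 47.3 and 48.4 CPM in WT livers and at 41.6, 42.6 and 40.4 CPM in GRLKO livers. At ZT4 it was at 51.5, 51.2 and 51.8 CPM against 37.0, 44.6 and 45.2 CPM, and at ZT8 at 46.0, 45.6 and 49.9 CPM against 36.9, 42.8 and 36.8 CPM. Through these hours each GRLKO liver was below each WT liver. At ZT16 it was at 63.8, 65.1 and 62.3 CPM against 61.5, 60.8 and 65.6 CPM, and at ZT20 at 51.8, 50.4 and 54.4 CPM against 45.6, 58.1 and 57.3 CPM. There the genotypes overlapped. A single edgeR fit of all CR libraries called 1 member at ZT4, 4 at ZT8 and 1 at ZT16, where it called 2.75%, 5.55% and 7.86% of all genes tested.

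On the control diet edgeR called 0 members at each of the 6 time points, as did DESeq2. All genes tested were called at rates of 0.536% at ZT0, 0.195% at ZT4, 1.43% at ZT8, 2.08% at ZT12, 1.98% at ZT16 and 0.42% at ZT20. Members with an unadjusted p under 0.05 numbered 0, 0, 3, 1, 2 and 0 (15.3%, 9.75%, 11.2%, 12.6%, 16.6% and 11.3% of all genes tested). Negative values numbered 17, 20, 26, 26, 13 and 13 of 31, against 51.7%, 50.4%, 50.2%, 49.1%, 50.3% and 48.9% over all genes tested. The members' median log2 fold changes were -0.00, -0.02, -0.06, -0.06, 0.00 and 0.02.

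Whether the genotype effect depends on diet was tested by the interaction, in which the batch of each diet drops out. The interaction gave 0 members at any of the 6 time points in edgeR and in DESeq2, where all genes tested were called at rates of 0% at ZT0, 0% at ZT4, 0.081% at ZT8, 1.01% at ZT12, 0.234% at ZT16 and 0% at ZT20. Members with an unadjusted p under 0.05 numbered 2, 5, 2, 6, 2 and 2, against 10.2%, 6.03%, 8.45%, 14.2%, 10.5% and 6.97% of all genes tested. At ZT4, 28 of the 31 values were negative (52% of all were), with a median of -0.17 against -0.01 for all genes tested. At ZT12, 23 were negative (49.6%), with a median of -0.08, and the values for Psmc5 and Psmd6 were both -0.36 (Benjamini-Hochberg adjusted p = 0.169 and 0.175, edgeR). So the genotype effect seen on CR is not shown to differ from that on the control diet.

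Food came at ZT12, and ZT16 against ZT12 spans the first hours of the meal and of the dark phase, so effects of food, darkness and time of day cannot be told apart. These comparisons use the same ZT12 libraries as the genotype comparisons, and each is given by its own values. In CR WT livers 6 of 31 genes rose (21% of all genes tested did) and 2 fell (19%), by edgeR's quasi-likelihood test. In CR GRLKO livers 13 rose (20.1%) and 0 fell (17.8%). In control WT livers 0 rose (6.85%) and 2 fell (6.6%), with 11 at an unadjusted p under 0.05 (30% of all genes) and 0 rising and 4 falling in DESeq2. In control GRLKO livers 0 were called (9.06%), with 2 at an unadjusted p under 0.05 (24% of all) and 0 in DESeq2. The medians of the members were 0.07, 0.16, -0.12 and -0.03, against 0.01, 0.00, -0.01 and 0.01 for all genes tested, the last member median turning to 0.01 and 0.02 without control GRLKO replicate 3 of ZT12 and of ZT16.

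Psmd14 had the largest rise on CR. In CR WT livers it went from 27.2, 28.0 and 24.4 CPM at ZT12 to 42.9, 37.0 and 46.7 CPM at ZT16, a log2 fold change of 0.69 (standard error 0.11, Benjamini-Hochberg adjusted p = 0.00269, edgeR). In CR GRLKO livers it went from 21.1, 24.3 and 22.5 CPM to 49.9, 43.2 and 57.1 CPM, at a log2 fold change of 1.16 (standard error 0.12, Benjamini-Hochberg adjusted p = 0.000387, edgeR). Every CR liver at ZT16 was above every CR liver at ZT12 in both genotypes. In control WT livers it was at 38.9, 37.7, 33.0 and 29.7 CPM at ZT12 and at 39.2, 38.1, 34.6 and 36.4 CPM at ZT16. There the time points overlapped.

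The base scaffolds rose as well. Psmd1 (ENSMUSG00000026229, chr1:86064387-86139151, plus strand), the partner of Psmd2, went from 90.6, 87.0 and 83.4 CPM to 121, 119 and 122 CPM in CR WT livers, a log2 fold change of 0.49 (standard error 0.07, Benjamini-Hochberg adjusted p = 0.00215, edgeR). In CR GRLKO livers it went from 79.0, 72.5 and 88.0 CPM to 122, 117 and 133 CPM, at a log2 fold change of 0.65 (standard error 0.10, Benjamini-Hochberg adjusted p = 0.00209, edgeR). In both genotypes the time points were separate. Psmd2 went from 138, 129.9 and 126 CPM to 177, 166 and 165 CPM in CR WT livers, a log2 fold change of 0.38 (standard error 0.08, Benjamini-Hochberg adjusted p = 0.00736, edgeR). Psmc6 (0.31), Psma1 (0.28) and Psmc2 (0.26), the gene with levels that varied widely across the 90 libraries, completed the 6 that rose in CR WT livers.

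Against that direction, Psmb4 (ENSMUSG00000005779, chr3:94884093-94886961, minus strand) went from 105, 103 and 103 CPM to 88.6, 86.6 and 83.1 CPM in CR WT livers, a log2 fold change of -0.25 (standard error 0.07, Benjamini-Hochberg adjusted p = 0.0268, edgeR). Psmd8 (ENSMUSG00000030591, chr7:29174188-29180701, minus strand) went from 108, 104 and 98.6 CPM to 82.5, 84.4 and 89.9 CPM, at a log2 fold change of -0.25 (standard error 0.08, Benjamini-Hochberg adjusted p = 0.0359, edgeR). The time points did not overlap for either gene, and both calls were lost without any 1 of the 6 livers, leaving 0 members lower. Scaling by total counts, which moved the median of all genes to 0.18, called 13 members higher and 0 lower in CR WT livers (30.4% and 11.6% of all genes), and the median of the members was 0.06 above that of all genes. DESeq2 called 6 higher and 3 lower there.

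In CR GRLKO livers the 13 were 5 of 8 lid genes, 4 of 6 ATPases, 2 of 3 other base genes and 2 of 7 alpha genes, with 0 of the 7 beta genes. Psmd6 went from 41.7, 37.6 and 41.6 CPM to 61.5, 60.8 and 65.6 CPM, at a log2 fold change of 0.65 (standard error 0.08, Benjamini-Hochberg adjusted p = 0.000958, edgeR). Its livers at ZT16 all stood above those at ZT12. The rest were Psmc5 (0.62), Psmd2 (0.54), Psmc4 (0.47), Psmd7 (0.45), Psma3 (0.42), Psmc6 (0.41), Psmd12 (0.33), Psmc1 (0.29), Psmd13 (0.29) and Psma1 (0.28). The number higher was 8 without ZT12 replicate 1, without ZT16 replicate 1 and without ZT16 replicate 3, and 1 member was lower without ZT12 replicate 1. DESeq2 called 13 higher and 0 lower.

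In control WT livers both members called lower were alpha genes. Psma5 went from 52.3, 54.0, 52.5 and 51.0 CPM to 44.4, 39.5, 36.7 and 36.7 CPM, at a log2 fold change of -0.41 (standard error 0.07, Benjamini-Hochberg adjusted p = 0.0074, edgeR). Psma4 (ENSMUSG00000032301, chr9:54950790-54958030, plus strand) went from 123, 123, 128.5 and 124 CPM to 109, 103, 102 and 102 CPM, at a log2 fold change of -0.25 (standard error 0.05, Benjamini-Hochberg adjusted p = 0.0127, edgeR). Both genes were lower in every liver at ZT16, and 1 member was higher without ZT12 replicate 1. Whether the change from ZT12 to ZT16 differs between genotypes or diets was not tested directly.

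Heat shock chaperones rose in all 4 groups, in 7 of 9, 6 of 9, 8 of 10 and 9 of 10 genes tested in CR WT, CR GRLKO, control WT and control GRLKO livers, with 1 lower in CR GRLKO livers. Hsp90aa1, the inducible form of a major cytosolic chaperone, went from a mean of 137 to 764 CPM in CR WT livers, a log2 fold change of 2.50. Bound and shuttle proteins were higher in 6, 4, 3 and 1 of 13 and lower in 2, 1, 1 and 0, with the shuttle Ubqln1 at 0.70 in CR WT livers. Regulators were lower in 3, 2, 3 and 1 of 8 and higher in 0 of 8 in each group by edgeR and by DESeq2, with Maff at -4.35, Bach1 at -1.20 and Ddi2 at -0.87 in CR WT livers. Of Vcp and its cofactors 2, 3, 1 and 1 of 8 were higher and 1 in each group was lower, with Ubxn4 at 1.32 in CR WT livers. Assembly chaperones in the CR groups were higher in 2 of 8 and lower in 1, Psmd9 (-1.09 in WT and -0.86 in GRLKO livers). Of the other constitutive subunits 1 of 2 was lower in CR WT livers, Sem1 (-0.29), a call lost without ZT12 replicate 3 and without ZT16 replicates 1 or 3. Activators and the inhibitor were higher in 1 of 5 in both CR groups and in control WT livers. Ubiquitin genes and activating enzymes were higher in 1 of 6 and lower in 2 in CR WT livers, and higher in 1 and lower in 1 in CR GRLKO livers.

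Kupffer cell markers were higher at ZT16 in 8 of 8 in CR WT livers, with sums of 43.1, 71.0 and 52.1 CPM at ZT12 and 107, 139 and 136 CPM at ZT16, mostly Clec4f. Hepatocyte markers were lower there in 4 of 6, from 156281, 155599.6 and 162052 CPM to 129437, 136197 and 130884 CPM, mostly Alb. Endothelial markers were higher there in 2 of 6 and lower in 1, and stellate markers higher in 1 of 6. In CR GRLKO livers Kupffer sums were 118, 92.9 and 154 CPM at ZT12 and 154, 133 and 121 CPM at ZT16, with 0 of 8 called by edgeR and by DESeq2 and 1 at an unadjusted p under 0.05. There hepatocyte and endothelial markers were each lower in 1 of 6 and cholangiocyte markers higher in 1 of 4. In control WT livers endothelial markers were higher in 4 of 6 (86.9, 72.8, 76.3 and 84.5 against 105, 109, 105 and 105 CPM, mostly Clec4g) and stellate markers in 3 of 6 (116, 91.7, 80.9 and 116 against 191, 132, 196 and 165 CPM, mostly Dcn), and cholangiocyte markers in 2 of 4. In control GRLKO livers 1 of 3 cholangiocyte markers was higher. The part of these markers in the values of the 31 genes was not tested.

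Daily rhythms were tested with JTK_CYCLE, a rank test against 24 h curves, and called at a Benjamini-Hochberg adjusted p under 0.05 with an amplitude over 0.1 (log2). Of the 31 genes, 11 were rhythmic in CR WT livers, 10 in CR GRLKO, 14 in control WT and 5 in control GRLKO. All genes tested were rhythmic at rates of 21.3%, 19.5%, 25.1% and 21.6%. These rates are over more genes than the 13041 (CR) and 12834 (control diet) tested for rhythm differences, and include genes of very low counts. On CR, an edgeR F test among time points called 17 members in each genotype, against 64.3% (WT) and 60.5% (GRLKO) of all genes tested. At an unadjusted p under 0.05 by JTK_CYCLE there were 17, 16, 25 and 14 members. Of all genes tested 5981 of 18651, 5672 of 18932, 6678 of 18874 and 6114 of 18705 were at that threshold. Amplitudes were small, with member medians of 0.11, 0.12, 0.10 and 0.08 against 0.12, 0.11, 0.08 and 0.09 for all genes tested (log2). Of the called members on CR, 4 in WT and 5 in GRLKO livers peaked at ZT20, and 0 peaked at ZT12, while in control WT livers 6 of the 14 peaked at ZT12 and 0 at ZT20. In control GRLKO livers 3 of the 5 peaked at ZT4, 1 at ZT8, 1 at ZT12 and 0 at ZT20. Among all rhythmic genes 638 of 3976 in CR WT, 663 of 3700 in CR GRLKO and 562 of 4740 in control WT livers peaked at ZT20, and 687, 614 and 937 at ZT12. In control GRLKO livers 505 of 4044 peaked at ZT4, 722 at ZT8, 740 at ZT12 and 542 at ZT20.

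**Figure D2:**
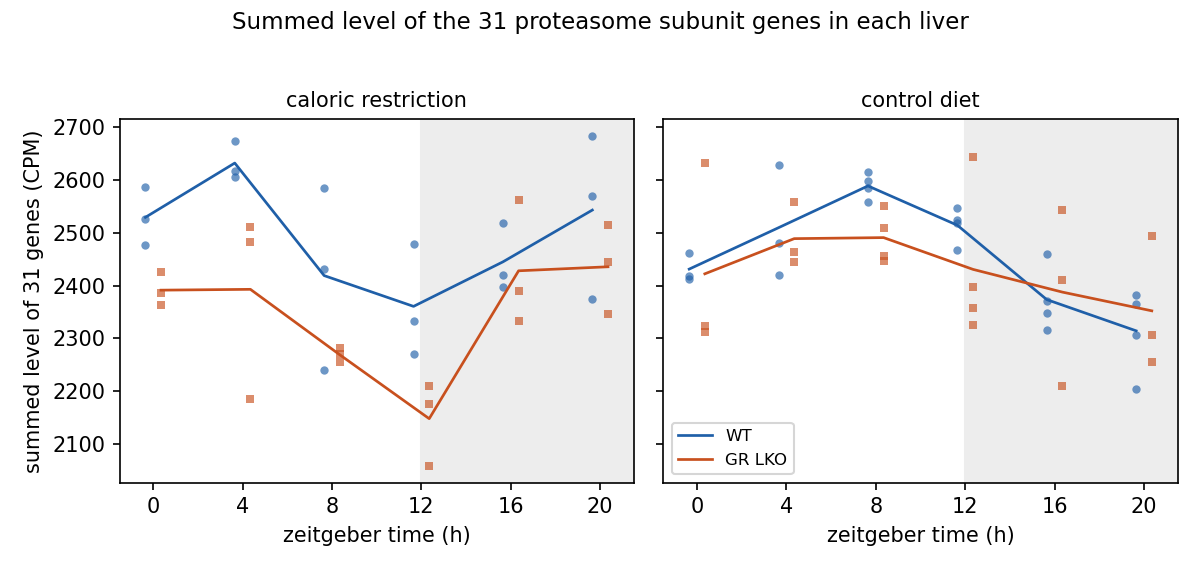
Summed level of the 31 genes (y axis, CPM) over the day (x axis, zeitgeber time in hours; grey marks the dark phase) in each liver, on CR and on the control diet, with WT as blue circles, GRLKO as orange squares and lines through the group means. On CR the lowest means fall at ZT12, 2361 in WT and 2148 in GRLKO livers, and under scaling by total counts the order of the genotypes at ZT12 on CR turns.

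In CR WT livers the mean sum of the 31 genes ran from 2361 CPM at ZT12 to 2632 CPM at ZT4, a ratio of 1.12, and in CR GRLKO livers from 2148 CPM at ZT12 to 2436 CPM at ZT20, a ratio of 1.13. On the control diet it ran from 2314 CPM at ZT20 to 2589 CPM at ZT8 in WT livers, a ratio of 1.12, and from 2352 CPM at ZT20 to 2491 CPM at ZT8 in GRLKO livers, a ratio of 1.06. Scaling by total counts widened the range on CR, to 2037 CPM at ZT12 and 2696 CPM at ZT4 in WT livers and to 2057 CPM at ZT12 and 2567 CPM at ZT0 in GRLKO livers, and turned the order of the genotypes at ZT12. On the control diet it gave 2295 CPM at ZT20 and 2591 CPM at ZT8 in WT livers, and 2331 CPM at ZT16 and 2611 CPM at ZT4 in GRLKO livers.

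The largest amplitude among the 31 was that of a lid gene in each of the 4 groups, Psmd14 on CR and Psmd11 on the control diet. Psmd14 had its lowest, median and highest level at 24.4, 37.9 and 54.9 CPM over 18 CR WT livers, at 21.1, 38.5 and 58.8 CPM over 18 CR GRLKO livers and at 29.7, 40.4 and 51.3 CPM over 22 control WT livers. On CR its mean was lowest at ZT12 and highest at ZT20, a ratio of 2.01 in WT and 2.37 in GRLKO livers, and on the control diet the ratio was 1.35 in WT livers, with the highest mean at ZT0. JTK_CYCLE gave Benjamini-Hochberg adjusted p = 0.0016, 0.00806 and 0.00509 in these 3 groups, with amplitudes of 0.38, 0.46 and 0.14. Psmd11 was the member called in all 4 groups together with Psma5 and Psma7. Its lowest, median and highest levels were 76.7, 115 and 143 CPM in CR WT livers and 84.7, 109.9 and 135 CPM in control WT livers. It peaked at ZT0 or ZT4 in each group, with amplitudes of 0.29, 0.32, 0.24 and 0.27 in CR WT, CR GRLKO, control WT and control GRLKO livers. Psmd3, a lid scaffold, was rhythmic in 3 groups, with levels of 48.8, 76.3 and 97.7 CPM (lowest, median and highest) in CR WT livers and an amplitude of 0.25.

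Psma5 kept a daytime peak, at ZT4 in CR WT, ZT0 in CR GRLKO and ZT8 in both control groups, with amplitudes of 0.23, 0.18, 0.20 and 0.22. Its lowest, median and highest levels were 42.6, 52.5 and 66.7 CPM in CR WT livers and 36.7, 50.3 and 59.8 CPM in control WT livers. The catalytic subunits Psmb5, Psmb6 and Psmb7 were called rhythmic together in control WT livers, each with a peak at ZT12, amplitudes of 0.14, 0.10 and 0.12 and Benjamini-Hochberg adjusted p = 0.0183, 0.00121 and 5.93e-05 by JTK_CYCLE. In the other 3 groups 0 of these 3 were called by JTK_CYCLE, with 1, 0 and 1 at an unadjusted p under 0.05 in CR WT, CR GRLKO and control GRLKO livers.

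**Figure D3:**
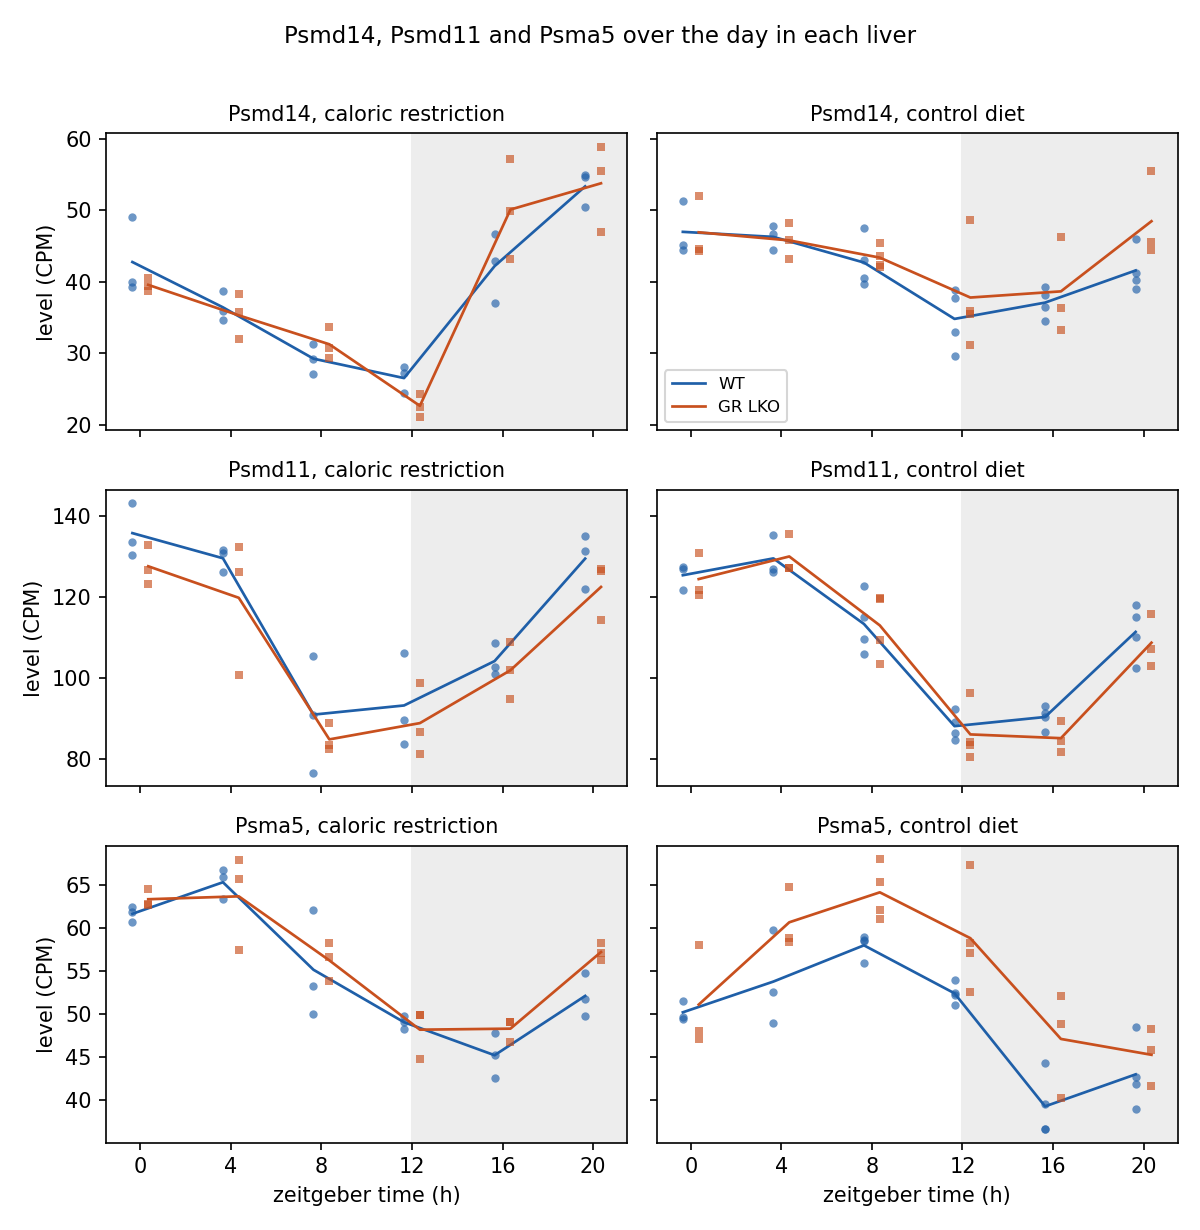
Levels (y axis, CPM) of Psmd14, Psmd11 and Psma5 over the day (x axis, zeitgeber time in hours) in each liver of the time series, by diet and genotype, with lines through the group means. On CR the mean of Psmd14 is lowest at ZT12, at 26.5 CPM in WT and 22.7 CPM in GRLKO livers, and near 53.3 and 53.7 CPM at ZT20.

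The number of members whose daily course was called different between GRLKO and WT livers on CR depended on the test. By limma's test of genotype against sine and cosine of time with Benjamini-Hochberg adjustment, 0 of 31 were called on CR (0.652% of all genes tested) and 0 on the control diet (0.366%). At an unadjusted p under 0.05 by limma there were 8 and 3 members, against 1576 of 13041 and 1260 of 12834 genes tested. The lowest adjusted p of a member by limma was 0.227 (Psmd13) and 0.445 (Psmb4). An edgeR F test of genotype by time point called 3 on CR (5.34% of all genes tested). That test takes any genotype difference that varies among time points and is not a test of a 24 h rhythm. The counts of rhythmic members depended on the livers included: in CR WT livers 2 were called without the livers numbered replicate 1, 1 without replicate 2 and 1 without replicate 3, in CR GRLKO livers 0, 1 and 0, and in control GRLKO livers 2 without replicate 1, 0 without replicate 2, 2 without replicate 3 and 5 without replicate 4. In control WT livers they ran from 10 to 14. The share of all genes called without these livers is not given, so a fall in these counts is not shown to be particular to the members.

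Around the proteasome, heat shock chaperones were rhythmic in 7, 7, 9 and 8 of 10 in CR WT, CR GRLKO, control WT and control GRLKO livers. Bound and shuttle proteins were rhythmic in 6, 6, 5 and 4 of 13, regulators in 3, 3, 5 and 4 of 9, and Vcp with its cofactors in 5, 4, 2 and 2 of 8. Kupffer cell markers were rhythmic in 0, 0, 8 and 5 of 8, with 0, 0, 8 and 7 at an unadjusted p under 0.05 by JTK_CYCLE, and endothelial markers in 2, 2, 6 and 5 of 6. Hepatocyte markers were rhythmic in 3, 1, 4 and 1 of 6, and 3 of the 4 in control WT livers peaked at ZT12. Stellate cell markers were rhythmic in 2, 1, 4 and 4 of 6. The part of these markers in the rhythms of the 31 genes was not tested.

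The profile of the members, as the mean of their standardised log2 CPM, was most like that of Taldo1 (r = 0.727), Mapkap1 (0.723), Nubp1 (0.721) and Abcb11 (0.717) among other genes over the 36 CR libraries. Vcp (0.71), the unfoldase that hands substrates to the proteasome, was among the 10 nearest. Over the 42 control libraries the nearest were Rdh7 (0.759), Prpf19 (0.699) and Adrm1 (0.698), the last a ubiquitin receptor of the proteasome that is not among the 31. The most opposite profiles were Optn (-0.699) on CR and Acsl4 (-0.689) on the control diet. These are Pearson values over libraries that share time points, genotypes and scaling.

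Promoters of the members were read because many members moved together and because Nfe2l1 and its small Maf partners are known to act at antioxidant response elements. The table of RefSeq promoters on GRCm38.p6 (300 bases, from before to just after each start) held 25 of the 31 genes and lacked Psmb1, Psmb2, Psmb7, Psmc3, Psmd3 and Psmd7. The letters of the antioxidant response element core, TGACNNNGC, were found on either strand in 4 of the 25 (16%), against 14% of 27025 genes and 12.4% of 32851 promoters. CCAAT was found in 10 of the 25 (40%), against 41.1% of genes and 37.4% of promoters, and the E-box CACGTG in 1 (4%, Psma4), against 8.09% and 7.15%. The forkhead core TGTTTAC and the cAMP element TGACGTCA were in 0 of the 25, against 4.05% and 2.03% of genes and 3.65% and 1.79% of promoters. None of these shares is far from that of all genes. The 4 promoters with the response element core, of the catalytic subunits Psmb5 and Psmb6, the ATPase Psmc6 and the lid subunit Psmd12, are shown 5′ to 3′ on the strand of the gene, with the matches in capitals. They lie at chr14:54617946-54618245 (minus strand) for Psmb5, chr11:70525107-70525406 (plus) for Psmb6, chr14:45329574-45329873 (plus) for Psmc6 and chr11:107479278-107479577 (plus) for Psmd12. A match describes the letters and is not a measured binding site.
Psmb5: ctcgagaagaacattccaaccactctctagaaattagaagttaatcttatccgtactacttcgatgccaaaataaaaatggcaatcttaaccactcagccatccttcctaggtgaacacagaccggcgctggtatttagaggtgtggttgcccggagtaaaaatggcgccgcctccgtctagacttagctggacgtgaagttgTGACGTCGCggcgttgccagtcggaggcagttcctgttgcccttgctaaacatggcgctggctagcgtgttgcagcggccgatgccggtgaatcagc
Psmb6: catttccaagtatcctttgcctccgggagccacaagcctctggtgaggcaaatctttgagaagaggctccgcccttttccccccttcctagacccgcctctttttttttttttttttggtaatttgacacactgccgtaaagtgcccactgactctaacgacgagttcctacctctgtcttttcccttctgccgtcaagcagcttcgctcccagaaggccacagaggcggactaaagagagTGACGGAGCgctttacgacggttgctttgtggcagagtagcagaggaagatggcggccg
Psmc6: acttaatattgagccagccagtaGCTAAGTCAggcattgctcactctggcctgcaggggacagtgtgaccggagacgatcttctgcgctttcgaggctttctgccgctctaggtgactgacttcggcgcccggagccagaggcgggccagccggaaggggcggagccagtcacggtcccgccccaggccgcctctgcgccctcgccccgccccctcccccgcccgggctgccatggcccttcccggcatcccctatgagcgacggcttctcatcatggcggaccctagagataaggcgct
Psmd12: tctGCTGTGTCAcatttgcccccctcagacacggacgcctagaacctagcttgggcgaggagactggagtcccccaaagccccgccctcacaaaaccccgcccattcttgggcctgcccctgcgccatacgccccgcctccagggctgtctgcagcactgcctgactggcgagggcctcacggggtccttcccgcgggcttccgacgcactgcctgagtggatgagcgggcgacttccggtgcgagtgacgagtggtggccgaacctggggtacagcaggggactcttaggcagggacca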

How the data were processed

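The deposited values are estimated counts per gene: the authors sequenced polyadenylated RNA of each liver, quantified it with Salmon and summed it to genes with tximport, without normalization. A deposited table of transformed values repeats 6 of the 90 libraries and was not used. In R 4.3.3, rounded counts were filtered (filterByExpr, minimum count 10), scaled by TMM within each table and tested with edgeR 4.0.16 (quasi-likelihood, Benjamini-Hochberg over all genes tested, threshold 0.05), each comparison on its own libraries. CPM were computed from the deposited counts after TMM, with a prior count of 2 on the log2 scale. Rhythms were tested with JTK_CYCLE, re-implemented with its exact null on variance-stabilised values (period 24 h, 6 phases, Bonferroni over phases, Benjamini-Hochberg over genes), and rhythm differences with limma 3.58.1. The edgeR tests between groups and of the interaction, DESeq2, JTK_CYCLE and the limma rhythm difference were tested on simulated data. The other steps were not. Alternatives were DESeq2 1.42.0, other scalings, no filter, the replicate number as a block, each replicate left out, and, chosen after seeing the data, counts of near-identical copies (at least 95% identity over at least 150 bases) added to the member.

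Symbols matched 27244 of the 27654 genes, and 0.107% of counts had none. Coordinates come from GENCODE vM21 on GRCm38, the build the authors name as mm10. The transcript annotation behind the counts is not stated. Paaf1 of the assembly list and Tf of the hepatocyte list did not match by symbol. Values in every liver are given for the catalytic subunits and for up to 3 called members with the largest change in each direction, and up to 4 called genes are named per related list. Precision is set by 3 or 4 livers per group and by counts of at least 39.7 per member and library. The members and the lists were chosen with earlier results of these data known.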

Additional observations from a re-analysis of the deposited data

Results flagged for a closer look

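In 3 of 42 sets of 4 values examined, from 6 groups of 4 livers, 1 liver stood apart from the other 3. Psma5 was at 55.9 CPM in control WT replicate 2 at ZT8. Psmb7 was at 127 CPM in control GRLKO replicate 3 at ZT12. Psma4 was at 109 CPM in control WT replicate 1 at ZT16. Chance alone marks about 1 in 20 such sets.

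In some pairs of comparisons every liver of a group moved one way and every liver of the other group the opposite way, and no test was made of any single such pair. From ZT12 to ZT16 in WT livers, Psma1 had a log2 fold change of 0.28 on CR and -0.15 on the control diet, and Psmc6 had 0.31 and -0.17. Over the same hours on CR, Psma6 had -0.11 in WT and 0.16 in GRLKO livers. In the comparison of GRLKO with WT livers on CR, Psma1 had -0.18 at ZT4 and 0.058 at ZT12. In that comparison Psmb4 had -0.11 at ZT4, -0.15 at ZT8 and -0.090 at ZT12, and 0.14 at ZT16.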

How the results depend on the processing

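Of 135 single-gene results named in the text or its lists, 131 kept their direction and their side of the threshold under DESeq2, 134 under RLE size factors, 128 with no filter, 113 under total counts, 103 with the replicate number as a block, where the other 32 lost the call, and all 135 with the counts of near-identical copies added. Among 851 such results with a replicate left out, 682 did, 166 lost the call and 3 turned. Among 36 results on diet in the WT livers of the time series at ZT12, 20 did, 6 lost the call and 10 turned. For the changes below, the cause was not tested, beyond the smaller number of livers when 1 is left out.

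Scaling by total counts gave 0 members higher and 25 lower with diet and turned Psmb6 to -0.11. It turned Psmb7 to -0.0073 with corticosterone. For GRLKO against WT on CR at ZT12 it gave 1 member lower, a median of 0.021, and values of 0.11 for Psmb5 and 0.021 for Psmb7. For ZT16 against ZT12 in CR WT livers it gave 13 members higher and 0 lower.

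In the WT livers of the time series at ZT12, where diet and library batch cannot be told apart, the diet comparison called 10 members, 9 of them lower. Of all genes tested 19.4% were lower and 18.7% higher. Psmb6 was at -0.30 and Psmb7 at 0.10. Among related genes the log2 fold change turned to 0.14 for Psmd10, 0.022 for Psme3, 0.094 for Zfand2a, -0.72 for Txnl1, -0.71 for Hspa1a, -0.13 for Hsph1, -0.91 for Hspa1b and -0.44 for Hspb1.

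With no filter on low counts, 4 members were lower in GRLKO on CR at ZT12. A single fit of all CR libraries called 1 member between genotypes at ZT4, 4 at ZT8 and 1 at ZT16 (2.75%, 5.55% and 7.86% of all genes tested). DESeq2 called 1 at ZT4 on CR, and 4 lower from ZT12 to ZT16 in control WT livers. For DESeq2, and for the log2 CPM values below, the share of all genes called is not given. In rhythms, an edgeR F test of any difference among time points called 17 members in CR WT and 17 in CR GRLKO livers (64.3% and 60.5% of all genes tested), log2 CPM values gave 8 in control GRLKO livers, and an edgeR F test of genotype by time point called 3 on CR.

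With the replicate number as a block, 1 member was lower in GRLKO on CR at ZT12, 0 were lower from ZT12 to ZT16 in CR WT livers and 1 was lower in CR GRLKO livers. The block changed no other count of calls by over 1.5 times. The share of all genes called with the block is not given, so these changes are not shown to be particular to the members. In no comparison was the correlation of deviations over 0.1 for every pair of livers with the same number, though all were positive for GRLKO against WT on the control diet at ZT0 and ZT16, and the numbers were not taken to pair the mice.

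With 1 replicate left out at a time, the number of members higher with diet ran from 0 to 2 and Psmb6 from -0.018 to 0.032. For GRLKO against WT on CR at ZT12 the number lower ran from 2 to 3 and Psmb5 from -0.10 to 0.026. From ZT12 to ZT16, members lower in CR WT livers ran from 0 to 0, members higher in CR GRLKO livers from 8 to 10 and lower from 0 to 1, members higher in control WT livers from 0 to 1, and the member median in control GRLKO livers from -0.073 to 0.016. Rhythmic members ran from 1 to 2 in CR WT, 0 to 1 in CR GRLKO and 0 to 5 in control GRLKO livers. The share of all genes called in the fits with a replicate left out is not given. Falls in these counts are therefore not shown to be particular to the members.

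Limits: these are relative transcript levels of whole liver, so they say nothing of proteasome protein or activity. Groups hold 3 or 4 mice, and a member that did not pass is not shown to be unchanged. Counts of calls and the median of all genes moved with scaling. Diet was compared at ZT12 alone outside the batch of the time series. Psmc2 varied widely, and its fold changes have wide errors in some comparisons, Psma3 shares reads with a pseudogene, and the split of reads between Psmb7, Psmd13 and Psmc3 and genes on the other strand is uncertain where exons overlap.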
